A study of Homo sapiens with 3 samples.

Results

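The transporter genes of solute carrier families SLC1 to SLC7 were examined for histone marks in the cell line H2087, a human lung adenocarcinoma line kept in culture. Protein-coding genes were taken from the GENCODE 44 annotation on hg19 when their symbol was SLC, a family number from 1 to 7, the letter A and a member number. The rule gave 77 of 20163 protein-coding genes, with 7 in SLC1, 14 in SLC2, 2 in SLC3, 10 in SLC4, 12 in SLC5, 19 in SLC6 and 13 in SLC7. Chromatin immunoprecipitation with sequencing (ChIP-seq) had been carried out on untreated H2087 cells grown in serum-supplemented medium, with 1 library for acetylation of histone H3 at lysine 27 (H3K27ac), 1 for trimethylation at lysine 4 (H3K4me3) and 1 of input chromatin. The peak lists of the 2 marks were used, and the input was not analysed here. All libraries came from this 1 cell line and n was 1 for each mark, so no value has a replicate and no test was made.

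The H3K4me3 list held 18585 distinct intervals and the H3K27ac list 24096. The start of each gene was placed at the most upstream base of its annotation, here the outer start, and was called marked when an interval of that mark lay within 1 kb of it. The region of a gene was the gene with 10 kb on either side. Each interval carries a −log10 q, a measure of how far the reads rose above the peak caller's background, which can be compared within a list only. Its median was 2.97 in the H3K4me3 list and 2.65 in the H3K27ac list. Read counts are not part of the lists, so depth is unknown and a start without an interval cannot be told from a start with too few reads. Of 10 marker genes of epithelium or lung adenocarcinoma, 7 carried H3K4me3 and 6 carried H3K27ac at the start, while the starts of the surfactant genes SFTPB and SFTPC and of NAPSA carried neither. None of 9 marker genes of other cell types had a mark at the start.

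Solute carriers move small molecules across membranes, either down a gradient or coupled to the flow of an ion. The families here take up acidic and neutral amino acids (SLC1), glucose and other hexoses by facilitated diffusion (SLC2), bicarbonate and chloride (SLC4), sugars, vitamins and iodide with sodium (SLC5), neurotransmitters and amino acids with sodium and chloride (SLC6) and cationic or large neutral amino acids (SLC7), and SLC3 proteins are the heavy chains that carry some SLC7 transporters to the cell surface. H3K4me3 is typical of active and poised promoters, and H3K27ac of active promoters and enhancers. Glucose, glutamine, cystine and leucine carriers of these families are much studied in lung tumours.

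Most of the transporter starts carried neither mark. H3K4me3 lay at 21 of the 77 starts, or 27.3%, with an exact Clopper-Pearson 95% interval of 17.7 to 38.6%, and at 38.2% of all protein-coding starts. H3K27ac lay at 9 starts, or 11.7% (5.49 to 21.0%), against 23.6% of all protein-coding starts. Both marks lay at 8 starts, or 10.4% (4.59 to 19.4%), against 18.6% of all. The remaining 55 starts, 71.4%, had no mark, and 56.8% of all protein-coding starts had none. Among the 294 other SLC genes, H3K4me3 lay at 37.1% of the starts, H3K27ac at 20.4% and both at 16.7%. The intervals cover counting error only and treat genes as independent, and the differences between the gene groups were not tested.

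The starts with both marks were those of SLC1A5, SLC2A1, SLC2A10, SLC4A2, SLC4A8, SLC5A3, SLC7A5 and SLC7A7. H3K27ac lay without H3K4me3 at the start of SLC7A1 and of no other transporter in these families. H3K4me3 lay without H3K27ac at 13 starts, which were those of SLC1A4, SLC2A4, SLC2A8, SLC2A13, SLC3A2, SLC4A3, SLC4A7, SLC4A11, SLC5A6, SLC6A9, SLC6A20, SLC7A6 and SLC7A14. Of the 21 starts with H3K4me3, 38.1% (18.1 to 61.6%) also had H3K27ac, compared with 48.6% of all protein-coding starts with H3K4me3. Where H3K4me3 was present its median −log10 q at the start was 3.29, and 3.76 over all marked protein-coding starts. The corresponding medians of H3K27ac were 2.82 and 3.05.

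**Figure D1:**
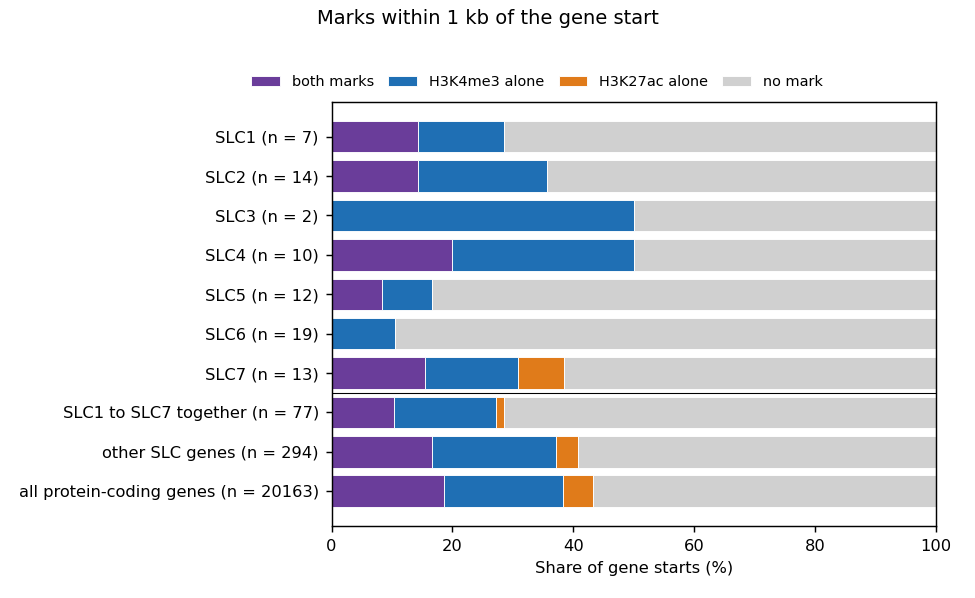
Share of gene starts (%) with both marks, H3K4me3 alone, H3K27ac alone or no mark within 1 kb, for each family, the 77 genes together, the 294 other SLC genes and all 20163 protein-coding genes. No SLC6 start had H3K27ac, and the unmarked share of the 77 genes was 71.4% against 56.8% of all genes.

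The counts within each family were small. H3K4me3 lay at 2 of 7 SLC1 starts, 5 of 14 SLC2 starts, 1 of 2 SLC3 starts, 5 of 10 SLC4 starts, 2 of 12 SLC5 starts, 2 of 19 SLC6 starts and 4 of 13 SLC7 starts. H3K27ac lay at 1 SLC1 start, 2 SLC2 starts, 2 SLC4 starts, 1 SLC5 start, 3 SLC7 starts and at none of the SLC3 or SLC6 starts. The count of 0 of 19 in SLC6 allows a share of up to 17.6% by the Clopper-Pearson interval. The SLC6 share of H3K4me3, 10.5%, had an interval of 1.3 to 33.1%, and the SLC4 share one of 18.7 to 81.3%, so the ranges of these families overlap.

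The 250 bases before the start were read 5′ to 3′ on the strand of the gene from the hg19 genome for 5 transporters. All 5 are among the much-studied carriers and were not drawn to represent their states. The first 3 are starts with both marks, and SLC4A8, whose start values were the highest, is not shown. SLC7A11 and SLC6A14 follow, whose regions held no interval. The start intervals of SLC1A5 and SLC2A1 lay outside these windows. Each CG is in capitals and all other bases are in lower case.
SLC1A5: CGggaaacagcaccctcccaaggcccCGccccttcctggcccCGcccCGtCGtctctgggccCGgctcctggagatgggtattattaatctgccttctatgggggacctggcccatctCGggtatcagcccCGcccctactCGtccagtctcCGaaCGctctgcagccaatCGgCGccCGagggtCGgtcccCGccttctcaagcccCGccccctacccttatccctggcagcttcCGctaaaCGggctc
SLC2A1: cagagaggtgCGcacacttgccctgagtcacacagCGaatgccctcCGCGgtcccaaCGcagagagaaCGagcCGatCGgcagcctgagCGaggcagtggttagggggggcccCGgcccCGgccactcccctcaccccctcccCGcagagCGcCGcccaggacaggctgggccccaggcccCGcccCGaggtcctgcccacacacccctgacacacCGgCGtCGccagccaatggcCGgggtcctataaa
SLC7A5: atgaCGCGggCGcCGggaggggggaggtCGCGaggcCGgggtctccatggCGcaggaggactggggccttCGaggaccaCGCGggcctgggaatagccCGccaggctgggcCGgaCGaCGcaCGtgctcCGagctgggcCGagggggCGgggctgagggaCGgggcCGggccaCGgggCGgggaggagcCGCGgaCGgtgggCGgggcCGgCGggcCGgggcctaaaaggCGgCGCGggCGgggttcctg
SLC7A11: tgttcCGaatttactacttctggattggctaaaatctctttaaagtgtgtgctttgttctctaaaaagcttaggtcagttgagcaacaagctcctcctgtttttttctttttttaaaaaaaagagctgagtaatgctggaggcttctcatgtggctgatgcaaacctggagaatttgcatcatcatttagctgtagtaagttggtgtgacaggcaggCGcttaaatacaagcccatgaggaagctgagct
SLC6A14: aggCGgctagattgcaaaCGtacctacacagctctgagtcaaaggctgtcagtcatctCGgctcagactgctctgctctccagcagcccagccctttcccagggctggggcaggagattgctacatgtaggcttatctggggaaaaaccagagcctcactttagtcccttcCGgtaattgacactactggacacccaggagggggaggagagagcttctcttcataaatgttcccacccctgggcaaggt

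These windows are chr19:47291852-47292101 on the minus strand for SLC1A5, chr1:43424565-43424814 on the minus strand for SLC2A1, chr16:87903114-87903363 on the minus strand for SLC7A5, chr4:139163504-139163753 on the minus strand for SLC7A11 and chrX:115567524-115567773 on the plus strand for SLC6A14. The SLC7A5 window holds 34 CGs, that of SLC2A1 20 and that of SLC1A5 19. SLC6A14 has 4 and SLC7A11 has 2.

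Over the 77 genes, CG content was summarised as the observed over expected ratio in the 300 bases from 250 before to 50 after the start. Its median was 0.722 at the 8 starts with both marks, 0.792 at the 13 with H3K4me3 alone and 0.414 at the 55 without a mark. The medians of all protein-coding genes in the same states were 0.843, 0.827 and 0.441. Ratios of the transporters spread widely, from 0.333 to 1.04 with both marks and from 0.0 to 0.965 without a mark. SLC7A11 with 0.221 and SLC6A14 with 0.172 fell below the lower quartile of the unmarked transporters, 0.223. The printed pair is therefore not typical of unmarked starts. Among the 40 transporters with a ratio of at least 0.6, H3K4me3 lay at 17 starts, or 42.5%, and at 55.5% of all protein-coding starts in that class. H3K27ac lay at 17.5% of these 40 starts and at 32.5% of the starts in the class. Below 0.6, H3K4me3 lay at 4 of 37 transporter starts, or 10.8%, against 14.4% of all, and these 4 were SLC4A2, SLC4A3, SLC4A8 and SLC7A14. When all protein-coding genes were weighted to the transporters' shares at or above 0.6 and below it, 35.7% had H3K4me3 and 22.3% had H3K27ac. Ratios within each class were not matched. Weighting them to the chromosomes of the transporters gave 39.8% and 24.8%.

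**Figure D2:**
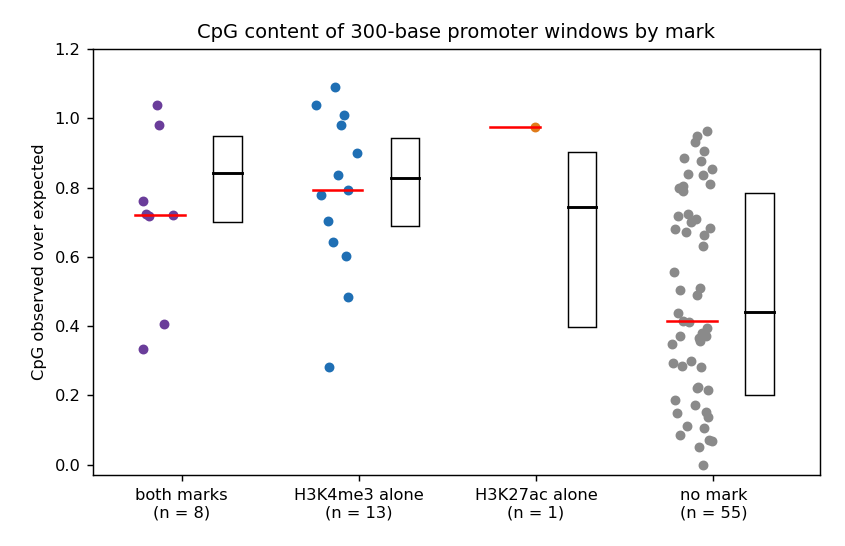
Observed over expected CG ratio of the 300-base promoter window by the marks at the start. Points are the transporters, red lines their medians, and boxes the quartiles and median of all protein-coding genes in the same state. Starts without a mark sit lowest, with a median of 0.414 for the transporters and 0.441 for all genes.

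Short motifs of factors known to act on transporter genes were searched on both strands of the same windows. CACGTG, the E-box bound by MYC and related factors, was in 6 of the 77 windows, or 7.79%, and in 8.33% of all protein-coding windows. TGACNNNGC, the antioxidant response element read by NRF2, was in 8, or 10.4%, against 13.6% of all. TGATGNAA, the amino acid response element read by ATF4, was in 3, or 3.9%, against 2.73% of all. These were the windows of SLC1A3, SLC7A1 and SLC7A11. ACGTG, the core of the hypoxia response element and a part of CACGTG, was in 17, or 22.1%, against 22.7% of all. In the printed windows, SLC7A5 held CACGTG 130 bases before the start, and SLC7A11 held TGATGCAA 95 bases before its start with the reverse-strand match TTGCATCA at 76. A match is a run of letters and not a measured binding site.

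The SLC1 family held 1 start with both marks, that of SLC1A5, the exchanger through which many cells import glutamine. At SLC1A5 an H3K4me3 interval of 757 bp ran from 251 to 1007 bp after the start with a −log10 q of 5.18, and an H3K27ac interval of 542 bp lay wholly inside it with 2.64. Both covered part of exon 1, with its 5′ UTR and coding sequence. A second pair lay in intron 1, where H3K4me3 reached 8.85, higher than 97.8% of its list, and H3K27ac 2.81. SLC1A5 held 4 H3K4me3 and 3 H3K27ac intervals in its region. SLC1A4, a related carrier of serine and alanine, had H3K4me3 over its start with 2.57 and no H3K27ac interval in its region. SLC1A7 had 2 H3K27ac intervals inside the gene and no mark at the start. The remaining members, SLC1A1, SLC1A2, SLC1A3 and SLC1A6, had no interval of either mark in their regions.

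SLC2A1, the widely expressed glucose transporter GLUT1, had the most H3K27ac intervals of the 77 genes, 16, and 7 H3K4me3 intervals. Its marks within 1 kb lay upstream. H3K4me3 ran from 625 to 1040 bp before the start at a −log10 q of 1.55, under its list's median of 2.97. H3K27ac ran from 816 to 1156 bp before the start at 2.82, above its list's median of 2.65. The H3K27ac intervals fell into an upstream group of 6, as far as 7679 bp before the start, and a group of 10 inside the gene. Their highest values were 5.98 at 5644 to 6125 bp before the start and 4.7 in intron 2. The strongest H3K4me3 intervals of the region were also away from the start, with 4.6 at 3369 to 3739 bp before it and 4.4 in intron 2. None of the H3K27ac intervals lay at the start of another protein-coding gene, and starts of noncoding genes were not examined.

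Elsewhere in SLC2, the start of SLC2A10 (GLUT10) was covered by an H3K4me3 interval with 3.89, and an H3K27ac interval of 191 bp with 2.82 began at the same base 310 bp upstream. SLC2A8, a hexose transporter of internal membranes, had an H3K4me3 interval over exons 1 to 3 with 9.27, the highest H3K4me3 value at a transporter start after that of SLC4A8, and its 2 H3K27ac intervals lay at exons 7 and 9. SLC2A4, the insulin-responsive transporter of muscle and fat, had H3K4me3 at 2.73 and no H3K27ac. SLC2A13, the proton-coupled inositol transporter, had H3K4me3 at 2.92 over exon 1 and nothing else. SLC2A3 (GLUT3), the main glucose transporter of neurons, had no mark at its outer start and 2 H3K4me3 intervals in its region, 1 of them 8336 to 8546 bp before that start and 1 in intron 1. The latter lay close to the start of its canonical transcript, 82820 bp inside the annotated gene, and SLC2A3 counted as marked when that start was used. SLC2A3 and SLC2A14 are near-identical copies on chromosome 12, and how reads that match both were treated is not stated. SLC2A14 had no interval in its region. Nor did SLC2A2, SLC2A5 and SLC2A7, which serve mainly liver, pancreas and intestine or the transport of fructose.

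**Figure D3:**
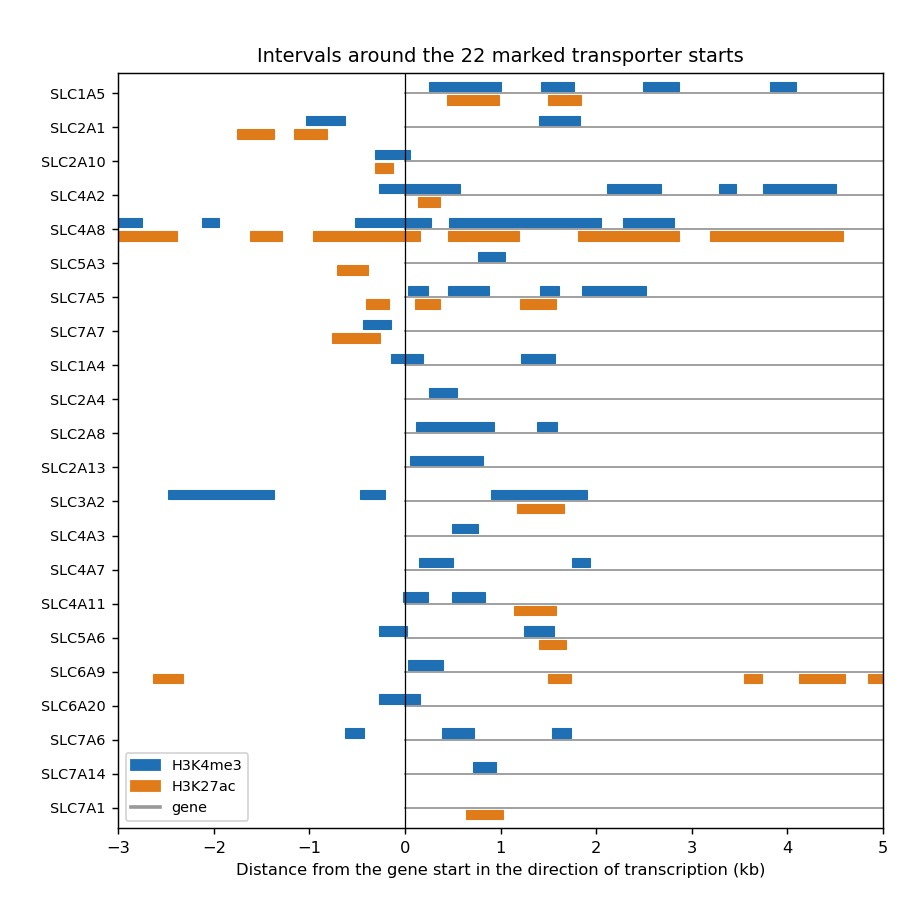
Intervals around the 22 transporter starts with a mark within 1 kb, drawn by distance from the start in the direction of transcription (kb), with H3K4me3 above and H3K27ac below each gene line. SLC7A1 has H3K27ac alone, and at SLC5A3 the marks lie on opposite sides of the start.

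SLC3A2, the heavy chain CD98 that pairs with SLC7A5 and SLC7A11, had 6 H3K4me3 and 2 H3K27ac intervals. The strongest H3K4me3 interval, with 6.39 over 1118 bp, lay 1368 to 2485 bp before the outer start. H3K4me3 at the start itself had 2.23 upstream and 3.72 in an interval that began 905 bp inside the gene. Noncoding genes were not examined, so the intervals upstream of the start cannot be assigned to SLC3A2 alone. An H3K27ac interval with 4.39 lay within the latter but began 1169 bp from the start, just outside the 1 kb window, so SLC3A2 counted as H3K4me3 alone. Its canonical transcript starts 24892 bp further in, near a second pair of overlapping intervals over exon 2. SLC3A1, the renal and intestinal partner of SLC7A9, had no interval.

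Among the bicarbonate transporters, SLC4A8, a sodium-driven chloride and bicarbonate exchanger, carried the strongest marks of all 77 starts. H3K4me3 reached 16.3 in an interval of 1594 bp from 456 to 2049 bp after the outer start and 13.6 in another over the start. H3K27ac reached 12.7 over the start, higher than 99.9% of its list, and 6.96 in an interval from 454 to 1193 bp after it. In all, 9 intervals of each mark lay in the region of SLC4A8. They fell between 8950 bp before and 4580 bp after the start. This start is 1550 bp from that of GALNT6, a glycosyltransferase gene on the other strand in which most of these intervals lie, and the canonical SLC4A8 transcript begins 33514 bp away, where no interval was found. The intervals at the shared stretch cannot be assigned to either gene from these lists.

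SLC4A2, an anion exchanger of many epithelia, had H3K4me3 over the start with 2.59 and an H3K27ac interval of 232 bp inside it with 1.87. The start of CDK5 lies 687 bp from that of SLC4A2, and its 4 other H3K27ac intervals lay at FASTK and TMUB1 in the downstream flank. SLC4A7, a sodium bicarbonate cotransporter, had H3K4me3 over exon 1 with 2.21 and in intron 1 with 4.6, with no H3K27ac in its region. SLC4A11 had 2 H3K4me3 intervals at its start with 3.87 and 3.48, and an H3K27ac interval with 2.29 that began 1141 bp from it. SLC4A3, an anion exchanger of heart and brain, had H3K4me3 at 3.11 over exon 2. SLC4A1, the anion exchanger of red cells, had a single H3K27ac interval 13.4 kb from an unmarked start.

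The sodium-coupled SLC5 family had 1 start with both marks. SLC5A3, the sodium and myo-inositol cotransporter, had H3K27ac 391 to 710 bp before the start with 3.05 and H3K4me3 762 to 1051 bp after it with 1.55, and these did not overlap. The start of MRPS6 lies 354 bp away, and the H3K27ac interval is within 1 kb of that start too. SLC5A6, which imports biotin and pantothenate, had H3K4me3 over its start with 3.29, where the start of ATRAID lies 917 bp away. The glucose cotransporter of the intestine, SLC5A1, had no interval in its region. SLC5A2, the glucose cotransporter of the kidney, had no mark at the start but 3 intervals in its region, the nearest 1.7 kb away. SLC5A5, the iodide transporter of the thyroid, had 1 H3K4me3 interval 9.94 kb away. SLC5A10, a transporter of mannose and fructose, held 2 H3K4me3 and 7 H3K27ac intervals the nearest of them 18.9 kb into the gene, of which 8 overlapped the gene FAM83G and 3 lay within 1 kb of its start.

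In SLC6, the largest family here, H3K4me3 lay at the starts of SLC6A9 and SLC6A20. SLC6A9, the glycine transporter GlyT1, had H3K4me3 over exon 1 with 3.54. The nearest of its 7 H3K27ac intervals began 1492 bp from the start, and 4 of them lay in intron 1, with values from 1.55 to 3.71. Those with 3.45 and 2.82 lay within 1 kb of the start of CCDC24. SLC6A20, a carrier of proline, had H3K4me3 over its start with 2.73 and a single H3K27ac interval in intron 9. SLC6A6, the taurine transporter, had no H3K4me3 interval and 6 H3K27ac intervals, all in introns and the nearest 9.82 kb from the start. Their −log10 q ran from 1.55 to 5.12, and none lay at the start of another protein-coding gene. The dopamine transporter gene SLC6A3 had H3K4me3 from 1240 to 1503 bp before the start, outside the window, with 1.71, and the serotonin transporter gene SLC6A4 had 1 H3K27ac interval 2.39 kb away. SLC6A14, an epithelial carrier of neutral and cationic amino acids, had no interval.

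SLC7A5, the large neutral amino acid transporter LAT1, had 5 H3K4me3 and 7 H3K27ac intervals. At its start, H3K4me3 had 4.6 over the first part of exon 1 and 2.93 further into that exon. H3K27ac had 3.55 from 164 to 411 bp before the start, over bases of the printed window, and 2.45 inside exon 1. The highest H3K4me3 value of the region was 6.22, in intron 1, and the other H3K27ac intervals also lay in intron 1, as far as 17186 bp from the start. SLC7A7, a cationic amino acid exchanger, had H3K27ac with 3.71 and H3K4me3 with 2.73, overlapping by 177 bp, upstream of an outer start that lies 59 bp from that of MRPL52. Its canonical transcript starts 14385 bp away and had neither mark. SLC7A1, the cationic amino acid transporter CAT1, had 1 H3K27ac interval in intron 1, 644 to 1024 bp from the start, with 2.82 and nothing else in its region.

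SLC7A6, which exchanges cationic for neutral amino acids, had 4 H3K4me3 and 3 H3K27ac intervals in its region. The strongest H3K4me3 interval, with 6.58, and an H3K27ac interval with 1.83 lay at the starts of PRMT7 and SLC7A6OS in the downstream flank. H3K4me3 lay on both sides of the start with 2.97 and 3.64. SLC7A14 had H3K4me3 in intron 1 with 3.54. SLC7A8, the related carrier LAT2, had an unmarked start and 2 H3K27ac intervals in its region, 1 of them within 1 kb of the start of CEBPE. SLC7A11, the cystine and glutamate exchanger that feeds glutathione synthesis, had no interval of either mark in the gene or its flanks, and SLC7A2, SLC7A3, SLC7A4, SLC7A9, SLC7A10 and SLC7A13 had none either.

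Positions within the start windows were counted by interval, and some genes gave more than 1. The same split was not made for all protein-coding starts. Of 26 H3K4me3 intervals, 15 lay downstream of the start, 4 upstream and 7 over the start base, and 9 overlapped an H3K27ac interval. Of 11 H3K27ac intervals, 5 lay downstream, 5 upstream and 1 over the start base, and 8 overlapped H3K4me3. The 1 kb limit decided some calls. The H3K27ac interval of SLC2A1, 816 bp away, was counted and those of SLC4A11 and SLC3A2, at 1141 and 1169 bp, were not.

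Over the whole regions, H3K4me3 was less frequent at the transporters than at protein-coding genes in general, and the gap was smaller for H3K27ac. At least 1 H3K4me3 interval lay in 29 of the 77 regions, or 37.7%, and in 56.8% of the regions of all protein-coding genes. At least 1 H3K27ac interval lay in 33, or 42.9%, against 48.9% of all. Neither mark was found in 35 regions, or 45.5%, against 35.3% of all. H3K27ac without H3K4me3 was found in 13 regions, or 16.9% (9.31 to 27.1%), against 7.95% of all protein-coding genes and 5.44% of the other SLC genes. The median region was longer for the transporters, 61.7 kb against 47.2 kb. Per 100 kb of region pooled over genes, H3K4me3 intervals numbered 1.17 against 1.5 over all protein-coding genes, while H3K27ac intervals numbered 1.61 in both. The mean of the densities of single genes was 1.94 against 2.8 for H3K4me3 and 2.42 against 2.79 for H3K27ac. None of these differences was tested.

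**Figure D4:**
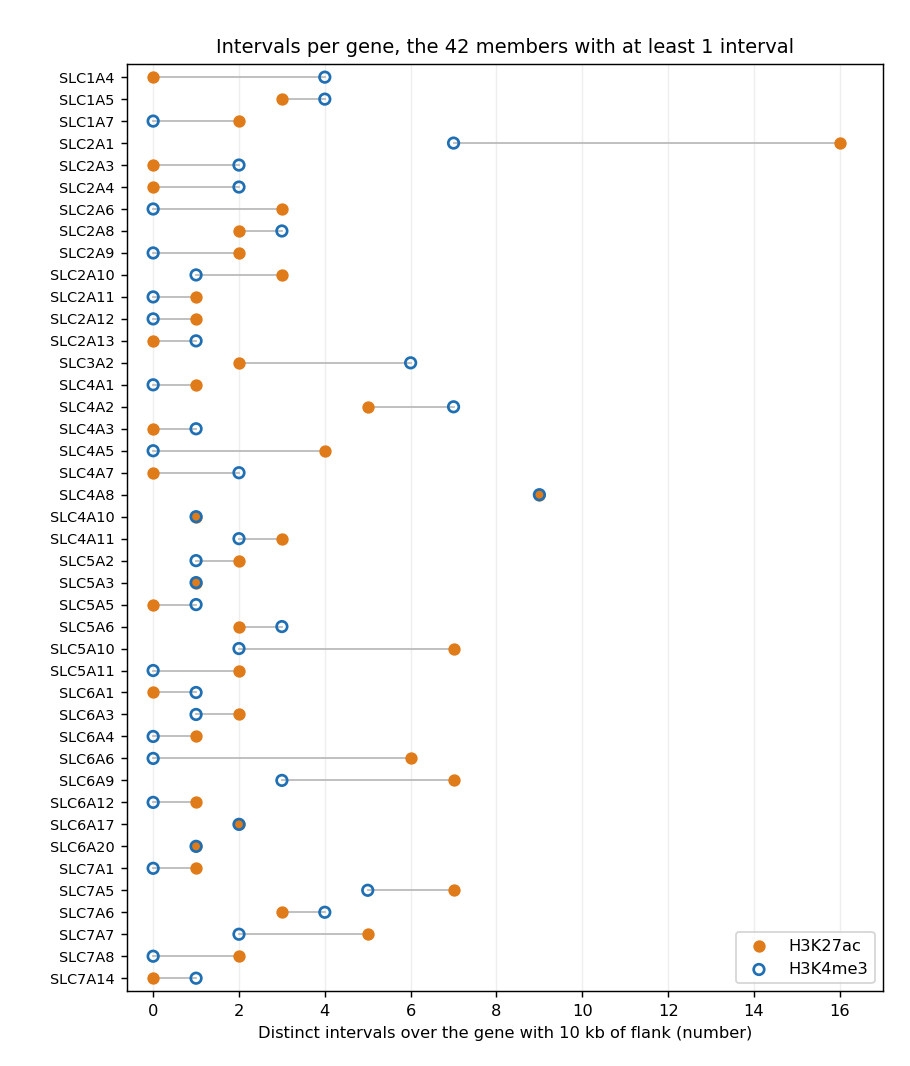
Number of H3K4me3 (open blue circles) and H3K27ac (filled orange circles) intervals in the gene with 10 kb of flank for each transporter with at least 1 interval. SLC2A1 stands apart with 16 H3K27ac intervals, and SLC4A8 has 9 of each mark.

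The regions held 80 distinct H3K4me3 intervals and 110 distinct H3K27ac intervals. Of these, 18 and 22 lay within 1 kb of the start of another protein-coding gene, and 26 and 11 in the start window of a transporter. H3K27ac intervals lay in introns 43 times, in exons 13 times and in flanks 47 times, and H3K4me3 intervals 24, 17 and 28 times. Exons and introns are those of the canonical transcript. A further 7 H3K27ac and 11 H3K4me3 intervals lay in the annotated gene outside that transcript. Widths were alike, with medians of 329 bp for H3K4me3 and 325.5 bp for H3K27ac, and the lists as a whole had medians of 305 and 284 bp.

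Of the 55 transporters with an unmarked start, 20 had an interval in the region, or 36.4%, close to the 37.9% of all unmarked protein-coding genes. In 12 of them it was H3K27ac alone, in 3 H3K4me3 alone and in 5 both. The interval lay inside the gene in 13 and in a flank alone in 7, and the median distance of the nearest one was 15.1 kb. These splits by mark and place and this distance were not worked out for all unmarked protein-coding genes. They are therefore not a trait set apart from other genes. SLC6A6 and SLC5A10 had the most. The other 35 had no interval at all. They were 11 of the 19 SLC6 genes, 7 of the 13 SLC7 genes, 6 of the 12 SLC5 genes and 4 of the 7 SLC1 genes. The rest were 4 of the 14 SLC2 genes, 2 of the 10 SLC4 genes and 1 of the 2 SLC3 genes. The 5 pairs of these genes with gaps of at most 100 kb, such as SLC6A19 and SLC6A18 or SLC2A7 and SLC2A5, all had unmarked starts at both members. None of the 6 genes on chromosome 5, the 4 on chromosome 22 or the 3 on chromosome 4 had a marked start. Nor did the 3 on chromosome X, the 2 on chromosome 8 or the 1 on chromosome 6. In that order, 54.1%, 46.7%, 29.2%, 3.91%, 38.5% and 34.2% of all protein-coding starts on these chromosomes were marked.

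**Figure D5:**
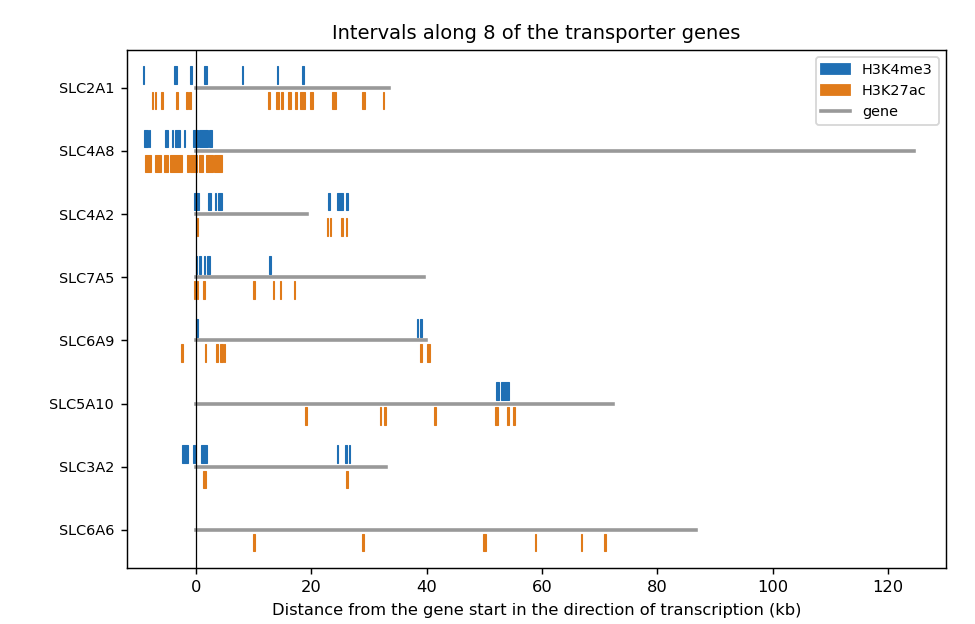
Intervals along the transporters with the 5 highest counts of either mark and SLC6A6, added after its values were seen, by distance from the gene start in the direction of transcription (kb), with H3K4me3 above and H3K27ac below each gene line. The H3K27ac intervals of SLC2A1 spread over the upstream flank and the gene, those of SLC4A8 lie within 10 kb of the start, and SLC6A6 has H3K27ac alone.

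Other genes of the same pathways were scored in the same way. Of 34 such genes, H3K4me3 lay at 20 starts, H3K27ac at 11, both at 10 and neither at 13. These are 58.8%, 32.4%, 29.4% and 38.2% of the genes, beside 38.2%, 23.6%, 18.6% and 56.8% of all protein-coding genes. Amino acid carriers of other families had both marks at 4 of 10 starts, those of SLC38A1, SLC38A2, SLC38A7 and SLC43A2. Genes of glucose uptake and its control had both at 3 of 6, namely HK2, which phosphorylates glucose, TXNIP, which lowers its uptake, and TBC1D1, which controls transporter traffic. Glutamine and glutathione enzymes had H3K4me3 at 5 of 6 starts and both marks at 1, that of GCLM. In the amino acid response group, LAMTOR1 and DDIT3 had both marks and ATF4, the regulator that reads the TGATGNAA element, had H3K27ac alone. Of 6 partners of ion carriers, which are carbonic anhydrases and scaffold proteins, CA2 and NHERF1 had H3K4me3 and none had H3K27ac at the start.

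The shares moved with the window and with the choice of start. With a 3 kb window, H3K27ac lay at 19.5% of the transporter starts and at 29.9% of all protein-coding starts, and the starts it added were those of SLC3A2, SLC4A11, SLC5A2, SLC5A6, SLC6A4 and SLC6A9. When an interval had to cover the start base itself, the order turned for H3K4me3, with 9.09% of the transporters and 3.3% of all protein-coding genes. Counting the start of every annotated transcript, H3K27ac lay at 20.8% of the transporters and 30.7% of all protein-coding genes, and both marks at 16.9% and 25.3%. With the canonical start alone, H3K4me3 lay at 20 of the 77 starts and H3K27ac at 8, or 10.4%, against 41.3% and 25.2% of all. Without the 5 transporters whose start lies within 1 kb of another protein-coding start, H3K4me3 lay at 17 of 72, or 23.6%, and H3K27ac at 6, or 8.33%, and protein-coding genes without such neighbours had 33.6% and 20.6%.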

How the data were processed

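Untreated H2087 cells were profiled for H3K27ac and H3K4me3, with 1 library each. Per the labels and methods, the authors used bcl2fastq 1.8.4, Bowtie 1.1.1 (hg19), SAMtools 1.2, Picard 1.118, MACS2 2.1.0 and ChIPseeker 1.6.6. The calling threshold and the use of the input in calling are not given in the sources used here. The deposited lists give positions and a value without header, read here from its range as the −log10 q-value of each summit. Summits sharing an interval (25275 H3K27ac and 20282 H3K4me3 entries) were merged and the highest value kept. Genes came from GENCODE 44, and no entry passed a chromosome end of hg19. Intervals and genes were joined in Python 3.11.15 with pandas 2.3.3, NumPy 2.4.6 and SciPy 1.17.1, with at least 1 bp in common, and the lookup was checked on planted intervals. Depth is unknown. Members, lists and rules were chosen with earlier results of these data known. Named were members with H3K27ac at the start, the 5 with most intervals and the 3 with the highest start value per mark, and 8 much-studied carriers; others were named for their family or after their values were seen. Other windows, starts, flanks and list depths were tried.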

Additional observations from a re-analysis of the deposited data

How the results depend on the processing

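No paired analysis was possible because n was 1 for each mark, which also left no replicate to drop. Of 33 alternative values for the 5 main results, 22 stayed within the counting interval of a share or within 1.5 times of a count, and 11 moved. When intervals under the list's median −log10 q were dropped, H3K4me3 lay at 15.6% of the transporter starts (26.8% of all protein-coding starts), both marks at 3.9% (10.0%), and the regions held 49 H3K4me3 and 60 H3K27ac intervals. With an interval over the start base, the shares were 9.09% for H3K4me3, 1.3% for H3K27ac and 1.3% for both (all protein-coding starts 3.3%, 1.47% and 0.511%). Without flanks, 52 H3K4me3 and 63 H3K27ac intervals remained, and with flanks of 50 kb there were 176 and 234, by construction of the smaller and larger regions. Of 98 alternative values for families, 66 stayed and 32 moved. A window of 500 bp lost SLC2A1, SLC5A3 and SLC7A14 for H3K4me3 and SLC2A1 and SLC7A1 for H3K27ac. Canonical starts lost SLC4A8 and SLC7A7 and gained SLC2A3 for H3K4me3, and lost SLC4A2, SLC4A8 and SLC7A7 and gained SLC4A11 and SLC5A6 for H3K27ac. Canonical starts, and leaving out shared starts or intervals at other genes' starts, were chosen after seeing the data. The cause of the other changes was not tested.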
